A study of Mus musculus with 2 samples.

Results

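The insulin-like growth factor (IGF) genes described here are the ligands *Igf1* and *Igf2*, the receptors *Igf1r* and *Igf2r*, and the binding proteins *Igfbp2* to *Igfbp7*, found by symbol in the deposited gene table. All 10 genes were found among 55471. The family was chosen by the measured counts of *Igfbp3*, which had been seen to be higher in VhlhKO, so that the VhlhKO to Ctrl ratios of these genes are descriptions and not tests. They were measured by bulk RNA-Seq in Pdpn+ cells of mouse kidney, sorted as negative for EpCAM, CD45 and Nephrin, which the study calls lymphatic-like endothelial cells. There is 1 library from VhlhKO kidneys and 1 library from Ctrl kidneys.

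VhlhKO mice carry *Hoxb7-Cre-GFP*/+ and *Vhlh* loxP/loxP, so that *Vhlh*, the mouse *VHL* gene, is deleted in tubule cells that express Cre from the *Hoxb7* promoter. Ctrl mice carry *Hoxb7-Cre-GFP*/+ according to the design text, and the genotype entry also names this Cre line, whereas another entry of the same sample names *Vhlh* loxP/loxP animals. Both groups were male C57BL/6J mice without treatment. The sample entries give an age of 12 weeks, the growth protocol 8 to 12 weeks and the design text 10 to 12 weeks. The sample protocols name selection by Pdpn alone, and the other gates come from the design text. Each library is a pool, of 3 mice in the methods on sequencing and of 6 in those on sorting. The sorted cells recovered in endothelial cell medium with serum and growth supplement for several hours before RNA was extracted.

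IGF1 and IGF2 are small secreted hormones related to insulin. They signal through the IGF1 receptor, a tyrosine kinase at the cell surface, while the IGF2 receptor takes up IGF2 and brings it to the lysosome. Binding proteins hold most IGF outside cells, lengthen its life, keep it from the receptor or release it when proteases cut them, and several also bind matrix or cells. In the kidney, IGF signaling is known for its part in growth, filtration and the response to injury.

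The libraries held 34465017 counts in VhlhKO against 31817115 in Ctrl. Counts were scaled by TMM to CPM (counts relative to the scaled library size), and log2 ratios are VhlhKO over Ctrl after 0.5 CPM was put on each side. Genes with 20 counts or more in 1 library count as measured, and a measured gene was called 2-fold higher or lower once its log2 ratio reached 1 or -1. A count ratio is given without the added amount, and the range after it is its exact 95% (Clopper-Pearson) interval. With 1 library a group there is no replicate and no test, and these intervals hold the error of counting but no spread of mice or pools. Levels of different genes are compared on the deposited TPM, which divides by gene length. The transcript of the gate marker *Pdpn* had 2313 counts in VhlhKO against 1836 in Ctrl, and *Flt4*, which encodes the lymphatic receptor Vegfr3, had 898 counts in VhlhKO against 710 in Ctrl. The lymphatic endothelial genes *Prox1* (142 and 144 counts) and *Lyve1* (128 and 10 counts) were low, and *Mmrn1* and *Ccl21a* were at 0 in both. The label of lymphatic endothelium is thus not borne out by all of its defining markers, and the cells are called Pdpn+ cells here. Of the genes of the negative gates, *Epcam* had 155 counts in VhlhKO against 69 in Ctrl, a ratio of 2.09 (1.56 to 2.81). *Ptprc*, the CD45 gene, had 24 counts in VhlhKO against 12 in Ctrl, a ratio of 1.86 (0.894 to 4.08). *Nphs1*, the Nephrin gene, had 44 counts in VhlhKO against 77 in Ctrl.

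*Igfbp3* lies on chromosome 11 of GRCm38, from 7206086 to 7213923 on the minus strand. *Igfbp1*, a liver-type binding protein that is not among the 10 genes, lies beside it on the plus strand, from 7197782 to 7202546. No gene is annotated in the 3539 bases between the ends of this pair. The pair stood at opposite ends of the scale in these cells, since *Igfbp3* had 6564 counts in VhlhKO against 1012 in Ctrl and *Igfbp1* had 1 count in VhlhKO against 2 in Ctrl. Their promoters are shown for this reason, followed by that of *Igfbp4*, which also lies on chromosome 11 and was the only 1 of *Igfbp2* to *Igfbp7* with fewer scaled counts in VhlhKO. The 250 bases before each RefSeq start (GRCm38.p6) are given in the direction of the gene. Capitals mark the letters ACGTG or GCGTG on either strand (on the other strand, CACGT or CACGC), which are the core of a hypoxia response element, and the TATA box letters TATAAA on either strand.
Igfbp3, chr11:7213924-7214173, minus strand: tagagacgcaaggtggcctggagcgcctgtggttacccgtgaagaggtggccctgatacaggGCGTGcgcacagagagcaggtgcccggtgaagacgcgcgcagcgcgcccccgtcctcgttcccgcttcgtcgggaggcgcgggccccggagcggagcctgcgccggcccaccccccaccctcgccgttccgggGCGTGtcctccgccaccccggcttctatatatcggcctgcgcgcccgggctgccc
Igfbp1, chr11:7197537-7197786, plus strand: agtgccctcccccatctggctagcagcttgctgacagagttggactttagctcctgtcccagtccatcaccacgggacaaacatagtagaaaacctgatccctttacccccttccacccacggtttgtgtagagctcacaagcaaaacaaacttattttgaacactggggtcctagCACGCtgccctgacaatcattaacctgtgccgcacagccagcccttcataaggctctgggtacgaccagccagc
Igfbp4, chr11:99040994-99041243, plus strand: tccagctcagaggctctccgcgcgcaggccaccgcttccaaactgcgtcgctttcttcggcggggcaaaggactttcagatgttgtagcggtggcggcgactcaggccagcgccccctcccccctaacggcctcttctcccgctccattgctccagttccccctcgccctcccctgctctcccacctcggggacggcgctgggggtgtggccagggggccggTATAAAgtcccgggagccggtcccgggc

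The *Igfbp3* window held GCGTG at 2 places, starting 188 and 55 bases before the start site, and was 73.2% G and C. The *Igfbp1* window held the same letters at 1 place, on the other strand, 74 bases before the start, and was 53.2% G and C. The *Igfbp4* window held neither ACGTG nor GCGTG and had TATAAA 28 bases before the start. Such letters are common, as 38.6% of all 32851 promoter windows of this length held ACGTG or GCGTG on at least 1 strand and 12.4% held TATAAA. A run of CACGTG counts for both strands in this search. All 10 genes had a promoter entry in RefSeq, with 14 windows in all, and 7 of these windows held ACGTG or GCGTG. The matches are letters only and were not tested as binding sites.

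The ligand genes were close to silent in the Pdpn+ cells. As these are bulk samples, for every gene given here a change in the number of cells of a type and a change in RNA per cell cannot be told apart. *Igf1* (chromosome 10, from 87858265 to 87937042) had 128 counts in VhlhKO against 68 in Ctrl, which is 1.34 TPM in VhlhKO against 0.772 TPM in Ctrl. The count ratio was 1.75 (1.29 to 2.38), so that *Igf1* was higher in the VhlhKO library beyond counting error but within 2-fold. *Igf2*, the fetal growth factor gene (chromosome 7, from 142650766 to 142666816), had 3 counts in VhlhKO against 2 in Ctrl, at the limit that a count of 0 allows (3 counts), and no fold is given for it. The antisense gene *Igf2os* overlaps *Igf2* and also had 3 counts in VhlhKO against 2 in Ctrl, and whether the counting used the strand is not stated. Summed over both ligands, the level was 1.40 TPM in VhlhKO against 0.811 TPM in Ctrl.

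The receptor genes, in contrast, were well expressed and nearly level between the libraries. *Igf1r* (chromosome 7, from 67952827 to 68233668) had 10579 counts in VhlhKO against 9617 in Ctrl, a ratio of 1.02 (0.994 to 1.05). Its counting interval includes 1, and any difference above 1.05-fold lies outside it. *Igf2r* (chromosome 17, from 12682406 to 12769664), which encodes the receptor that clears IGF2 and carries lysosomal enzymes, had 5670 counts in VhlhKO against 4815 in Ctrl, a ratio of 1.09 (1.05 to 1.14). *Airn*, a noncoding gene on the opposite strand of *Igf2r*, had 85 counts in VhlhKO against 103 in Ctrl, few beside those of the receptor. *Insr*, the related insulin receptor gene, had 2480 counts in VhlhKO against 2181 in Ctrl, a ratio of 1.06 (0.997 to 1.12). Per length, the *Igf1r* level was 3.49 times that of *Insr* in VhlhKO and 3.61 times in Ctrl. The *Igf1* level was 0.0205 of the *Igf1r* level in VhlhKO and 0.0120 in Ctrl, both on the TPM scale. The Pdpn+ cells of both genotypes thus held abundant receptor transcripts and very few ligand transcripts.

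**Figure D1:**
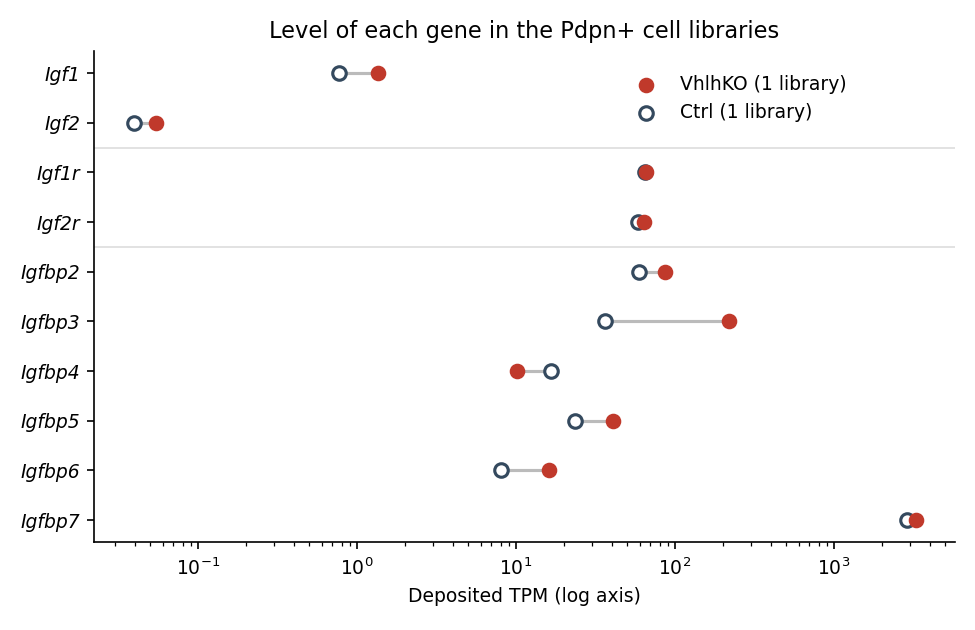
Deposited TPM (log axis) of the 10 IGF genes, with 1 filled point for the VhlhKO library and 1 open point for the Ctrl library in each row. The ligands lie at or below 1.34 TPM, the receptors between 58.2 and 65.5 TPM, and the binding proteins span 7.99 to 3260.4 TPM, with the widest gap at *Igfbp3*.

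The larger differences were among the binding proteins. *Igfbp3* encodes the main IGF carrier of blood, which forms a complex with IGF and the acid-labile subunit. It stood at 218 TPM in VhlhKO (213 to 224, exact Poisson 95%) and 36.3 TPM in Ctrl (34.1 to 38.7). The count ratio was 6.03 (5.64 to 6.45) and the log2 ratio 2.57, which made *Igfbp3* the only 1 of the 9 genes with enough counts to be called 2-fold higher, and none was called lower. Over all 15275 measured genes, 1.71% were called higher and 0.524% lower, together 2.23%. Since the genes were chosen with this contrast in view, nothing is read from the count of called genes. The summed level of all 18 fibroblast and pericyte markers was 7989 CPM in VhlhKO against 7599 CPM in Ctrl. Without *Acta2* and *Tagln*, both lower in VhlhKO and left out after their levels were seen, it was 1798 CPM in VhlhKO against 876 CPM in Ctrl. Without *Des* as well, it was 939 CPM in VhlhKO against 537 CPM in Ctrl. Sums for other cell types are given below. The part of any cell type in the *Igfbp3* ratio was not tested.

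*Igfbp3* was rank 7 of 15275 genes by log2 ratio, and the 6 genes above it had between 152 and 1178 counts in VhlhKO, fewer than *Igfbp3*. Among genes with at least 100 CPM in VhlhKO, a filter that *Igfbp3* itself passed in VhlhKO alone (191 CPM in VhlhKO against 31.7 CPM in Ctrl), those with log2 ratios close to it included *Clic5* (2.41), an intracellular chloride channel protein, *Mgp* (2.01), matrix Gla protein, *Htra1* (1.99), a secreted serine protease, and *Podxl* (1.95), podocalyxin. With 1 library a group, likeness here means only a similar ratio, and all 4 genes were below 100 CPM in Ctrl.

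**Figure D2:**
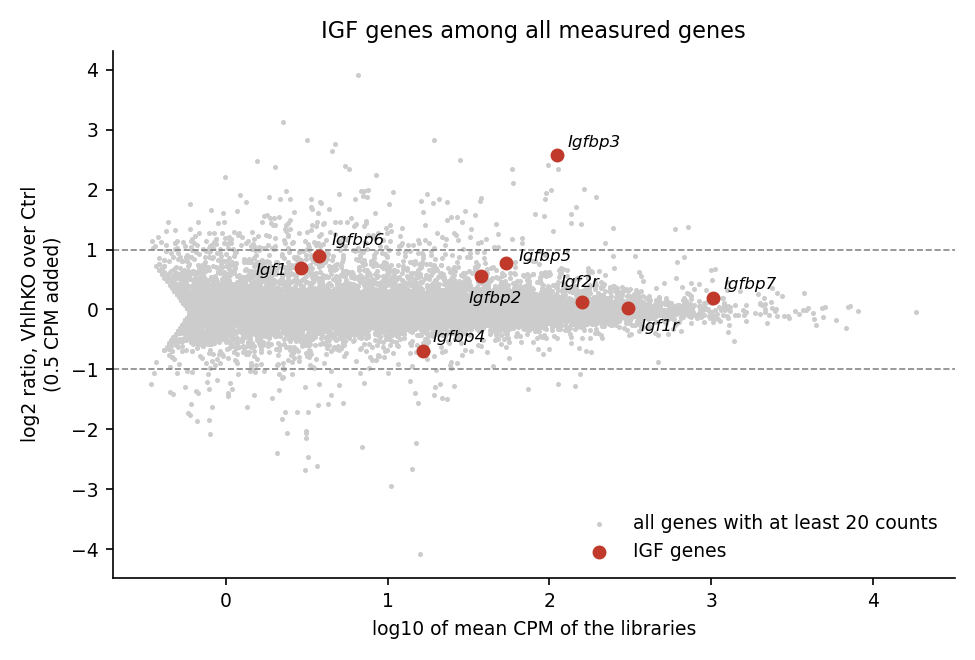
Log2 ratio of VhlhKO over Ctrl (0.5 CPM added) against the log10 of the mean CPM of the libraries, for all 15275 genes with at least 20 counts in 1 library (grey) and the 9 IGF genes among them (red). Dashed lines mark 2-fold, and *Igfbp3* at 2.57 is the only IGF gene beyond them.

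*Igfbp6* (chromosome 15, from 102144362 to 102149511), which binds IGF2 in preference to IGF1, came closest to the 2-fold rule without reaching it. It had 173 counts in VhlhKO against 79 in Ctrl, a count ratio of 2.03 (1.55 to 2.69), while its log2 ratio with 0.5 CPM added was 0.90. *Igfbp5*, a binding protein that attaches to extracellular matrix, had 2334 counts in VhlhKO against 1256 in Ctrl, a ratio of 1.73 (1.61 to 1.85). *Igfbp2*, a binding protein with an integrin-binding motif, had 1546 counts in VhlhKO against 974 in Ctrl, a ratio of 1.47 (1.36 to 1.60). *Igfbp2* and *Igfbp5* are neighbors on chromosome 1 (72824503 to 72852474 on the plus strand and 72857932 to 72874884 on the minus strand), with 5457 bases between them and no annotated gene in that gap. Both members of this pair were thus higher in the VhlhKO library, in contrast with the *Igfbp1* and *Igfbp3* pair, of which only *Igfbp3* was expressed.

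*Igfbp4* (chromosome 11, from 99041244 to 99054392) went the other way. This gene encodes a binding protein that keeps IGF from its receptor until the protease PAPP-A cuts it. It had 428 counts in VhlhKO against 650 in Ctrl, and was 1.63-fold lower in the VhlhKO library (1.44 to 1.85), at 10.1 TPM in VhlhKO against 16.5 TPM in Ctrl. *Igfbp6* stood above *Igfbp4* in VhlhKO (16.2 and 10.1 TPM), while *Igfbp4* stood above *Igfbp6* in Ctrl (16.5 and 7.99 TPM), and the counting intervals of these levels did not overlap in either library.

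*Igfbp7* (chromosome 5, from 77349240 to 77408041), a low-affinity binding protein found in basement membranes and vessel walls, was by far the most abundant gene of the family. It had 37891 counts in VhlhKO against 30758 in Ctrl, and was rank 24 of all 55471 genes by TPM in VhlhKO and rank 27 in Ctrl. The count ratio was small, 1.14 (1.13 to 1.16). *Polr2b* overlaps *Igfbp7* on the opposite strand and had 1798 counts in VhlhKO against 1740 in Ctrl.

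**Figure D3:**
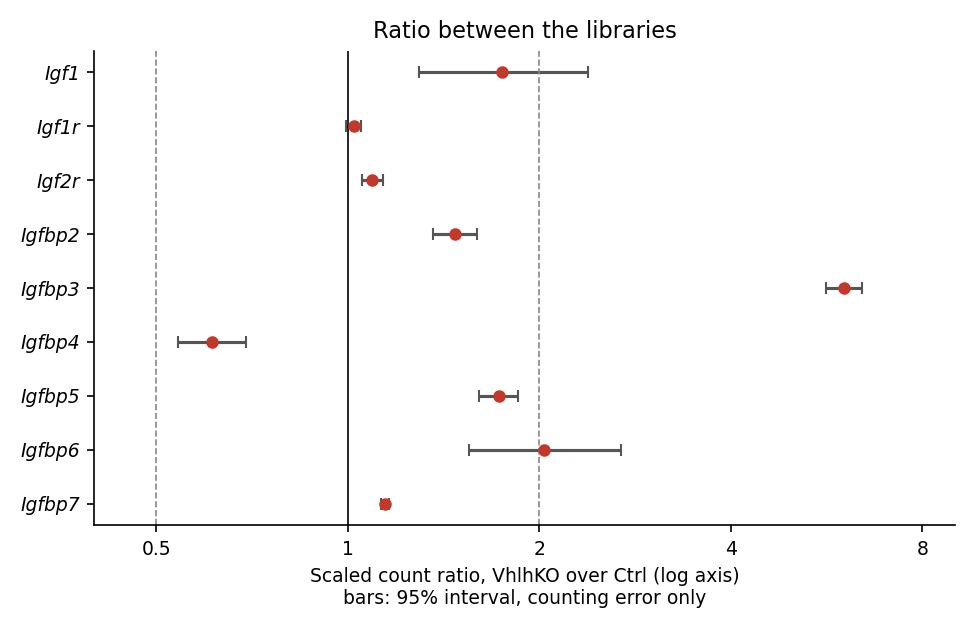
Scaled count ratio of VhlhKO over Ctrl (log axis) for the 9 IGF genes with at least 20 counts in 1 library, with the exact 95% interval for counting error as bars and dashed lines at 0.5 and 2. *Igfbp3* stands at 6.03, *Igfbp4* alone lies below 1, the interval of *Igf1r* spans 1, and *Igf2* is left out with 3 and 2 counts.

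At 1.5-fold, 4 of the 9 genes were higher (*Igf1*, *Igfbp3*, *Igfbp5* and *Igfbp6*) and *Igfbp4* was lower, against 4.75% higher and 1.82% lower among all genes, together 6.57%. The median log2 ratio of the 9 genes was 0.55, beside -0.00065 for all genes.

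The makeup of the binding protein transcripts per length differed between the libraries. *Igfbp3* made up 6.01% of the summed *Igfbp2* to *Igfbp7* TPM in VhlhKO (5.86% to 6.15%, a normal approximation for counting error) and 1.21% in Ctrl (1.14% to 1.28%). *Igfbp7* made up 89.8% in VhlhKO and 95.2% in Ctrl. Leaving out *Igfbp7*, a choice made after its level was seen, *Igfbp3* was 58.7% of the remaining sum in VhlhKO and 25.3% in Ctrl, while *Igfbp2* was 23.4% in VhlhKO and 41.3% in Ctrl. The most abundant binding protein after *Igfbp7* was therefore *Igfbp3* in VhlhKO (2.51 times the *Igfbp2* TPM) and *Igfbp2* in Ctrl (*Igfbp3* at 0.613 of it).

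Summed TPM of *Igfbp2* to *Igfbp7* was 3632 in VhlhKO and 3003.8 in Ctrl. Of the difference of 629 TPM, *Igfbp7* accounted for 63.7% and *Igfbp3* for 28.9%. The sum of *Igfbp2* to *Igfbp6* was 372 TPM in VhlhKO against 144 TPM in Ctrl, 2.59-fold higher. Without *Igfbp3* the remaining 4 genes of that sum gave 154 TPM in VhlhKO against 107 TPM in Ctrl, 1.43-fold higher. A small relative difference of an abundant gene thus came to more TPM than the large relative difference of *Igfbp3*.

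**Figure D4:**
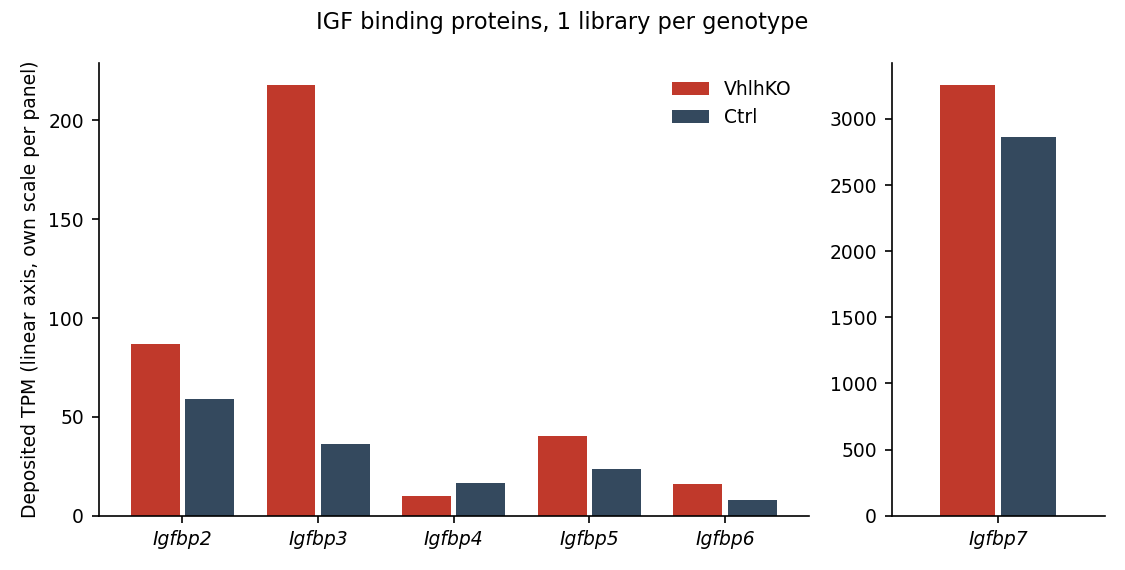
Deposited TPM of the binding protein genes in the VhlhKO library (red, left bar) and the Ctrl library (dark, right bar), on linear axes from 0, with *Igfbp7* on its own scale. *Igfbp3* stands at 218 and 36.3 TPM, *Igfbp4* is the only pair with the lower bar in VhlhKO, and *Igfbp7* stands at 3260.4 and 2860.1 TPM.

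Most genes that release or hold IGF outside the cell lay within 2-fold. Of 11 measured IGFBP proteases and protease inhibitors, 1 was 2-fold higher and 0 lower, beside 1.71% and 0.524% of all genes. The median log2 ratio was 0.05. The higher gene was *Htra1*, which encodes a secreted protease with an IGFBP domain of its own. It had 5601 counts in VhlhKO against 1295 in Ctrl, a ratio of 4.02 (3.78 to 4.27). *Pappa*, which encodes the protease that cuts IGFBP4, had 347 counts in VhlhKO against 312 in Ctrl, a ratio of 1.03 (0.884 to 1.21). *Stc2*, which encodes stanniocalcin, an inhibitor of PAPP-A, had 2336 counts in VhlhKO against 3642 in Ctrl, and was 1.68-fold lower (1.59 to 1.77). *Plau*, the urokinase gene, had 4211 counts in VhlhKO against 2083 in Ctrl, a ratio of 1.88 (1.78 to 1.98). *Igfals*, which encodes the acid-labile subunit that joins IGFBP3 in blood, had 6 counts in VhlhKO against 3 in Ctrl. Of 5 measured genes in a list of other IGF axis genes, none was past 2-fold, and the most abundant was *Lrp1*, which encodes an endocytic receptor reported to bind IGFBP3, at 426 TPM in VhlhKO against 356 TPM in Ctrl.

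The IGFBP domain is shared with other secreted proteins, and these were examined as a list. Among 11 measured genes 5 passed 2-fold, all of them upward in VhlhKO, beside 1.71% of all genes, and the median log2 ratio was 0.56. Besides *Htra1* they were *Esm1* (429 counts in VhlhKO against 156 in Ctrl), which encodes the endothelial proteoglycan endocan, *Kazald1* (260 and 96), *Ccn5* (57 and 14) and *Ccn3* (30 and 4). The ratio of *Esm1* was 2.56 (2.12 to 3.09) and that of *Kazald1* 2.52 (1.98 to 3.21). *Ccn3* and *Ccn5* rest on few counts, and with a minimum of 100 counts 3 of 7 genes were higher. With 5 CPM added, or at 3-fold, 1 of 11 was higher. The abundant matricellular genes *Ccn1* (1319.9 TPM in VhlhKO against 1304.6 TPM in Ctrl) and *Ccn2* (6453 TPM in VhlhKO against 6279.8 TPM in Ctrl) had log2 ratios of 0.02 and 0.05.

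Inside the cell, the signaling genes below the IGF and insulin receptors all lay within 2-fold. There were 38 measured genes, and their median log2 ratio was -0.03, with a range of -0.61 (*Grb14*, an adaptor of the insulin receptor) to 0.59 (*Pik3r1*, a regulatory subunit of PI3 kinase), both past 1.5-fold. *Akt1*, the kinase gene with the highest level of this list, was at 266 TPM in VhlhKO against 274 TPM in Ctrl. None of 16 measured FOXO target genes, which insulin and IGF signaling hold down through AKT, was past 2-fold (median 0.04). The most abundant of them, *Txnip*, was at 399.7 TPM in VhlhKO against 353 TPM in Ctrl. None of 7 genes of the growth hormone receptor axis, which drives *Igf1* in liver, was past 2-fold (median 0.30), and *Ghr*, the receptor gene, was at 86.5 TPM in VhlhKO against 104 TPM in Ctrl. In a list of 14 measured hypoxia-inducible genes 0 were higher, *Ndrg1* was lower past 2-fold (3406 counts in VhlhKO against 6679 in Ctrl), and the median was -0.11. The counting intervals of 3 of these genes lay above 1 and those of 7 below 1. *Car9* had 26 counts in VhlhKO against 10 in Ctrl, a count ratio of 2.42 (1.13 to 5.61) and a log2 ratio of 0.63. With 0.05 CPM added, or at 1.5-fold, 1 gene of this list was higher and 1 lower.

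**Figure D5:**
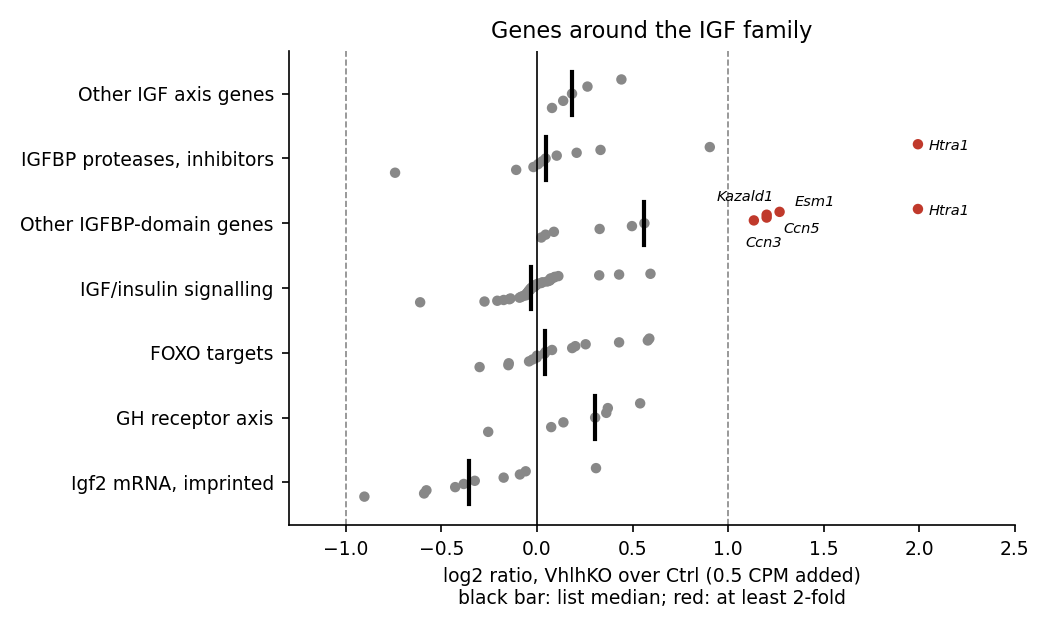
Log2 ratio of VhlhKO over Ctrl (0.5 CPM added) of each measured gene in 7 lists around the IGF family, with 1 point for each gene, a black bar at each list median and dashed lines at 2-fold. *Htra1*, which stands in both lists that show red points, *Esm1*, *Kazald1*, *Ccn5* and *Ccn3* are past 2-fold, and the signaling list lies between -0.61 and 0.59.

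Markers of other cell types also differed between the libraries. The fibroblast and pericyte list had 14 measured genes, of which 7 passed 2-fold upward in VhlhKO (*Col1a1*, *Col1a2*, *Col3a1*, *Pdgfra*, *Des*, *Postn* and *Mfap5*) and 0 downward, beside 1.71% and 0.524% of all genes. With 5 CPM added, or at 3-fold, 4 were higher. The counting intervals of 9 of the 14 genes lay above 1 and those of 3 below 1. These 3 were *Acta2* (ratio 0.977), *Tagln* and the pericyte gene *Cspg4*. *Cspg4* had 8012 counts in VhlhKO against 8957 in Ctrl, a ratio of 0.831 (0.806 to 0.857). The summed level of all 18 markers was 7989 CPM in VhlhKO against 7599 CPM in Ctrl. The dominant *Acta2* and *Tagln*, both lower in VhlhKO, were left out after their levels were seen. The sum without them was 1798 CPM in VhlhKO against 876 CPM in Ctrl, 2.05-fold higher. The fibroblast gene *Lum* had 1 count in VhlhKO against 0 in Ctrl. Of 6 measured mesangial markers *Des*, which is also in the fibroblast and pericyte list, was higher and *Ptn* lower. Their sum of 1066 CPM in VhlhKO against 527 CPM in Ctrl rests on *Des* (859 CPM in VhlhKO against 339 CPM in Ctrl), and without it, left out after its level was seen, the sum was 207 CPM in VhlhKO against 188 CPM in Ctrl.

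Of 14 measured macrophage and monocyte markers *Lyz2* was higher and *Cd163* lower, with a sum of 119.9 CPM in VhlhKO against 57.7 CPM in Ctrl, and *Ccr2* at 0 in both. The count of higher genes in this list was 3 on TPM, 6 with 0.05 CPM added and 10 at 1.5-fold, where 4.75% of all genes were higher. Of 6 measured podocyte markers *Podxl* was higher, with a sum of 755 CPM in VhlhKO against 506 CPM in Ctrl. The list did not move as a whole, with a median log2 ratio of 0.02. The counting intervals of 3 genes lay above 1 and those of 2 below 1. *Nphs1*, the Nephrin gene, had 44 counts in VhlhKO against 77 in Ctrl, a ratio of 0.531 (0.358 to 0.779). Of 12 measured proximal tubule markers 7 passed 2-fold downward in VhlhKO and 0 upward, at a sum of 109.7 CPM in VhlhKO against 129 CPM in Ctrl. With 5 CPM added 1 was lower, at 3-fold 4 were, and with a minimum of 100 counts 2 of 6 were. Of 5 measured lymphatic markers *Lyve1* and *Itga9* were higher, at a sum of 105 CPM in VhlhKO against 86.0 CPM in Ctrl. Most of this sum was *Pdpn* (67.3 CPM in VhlhKO against 57.5 CPM in Ctrl), the marker by which the cells were sorted. The count of higher lymphatic markers was 1 on TPM, 1 at 3-fold and 0 with 5 CPM added. None of 8 parietal epithelial markers (6952 CPM in VhlhKO against 7716 CPM in Ctrl) and none of 5 measured distal tubule and collecting duct markers (166 CPM against 190.1 CPM, with *Umod* and *Aqp2* at 0) passed 2-fold. The 8 measured pan-endothelial markers were all within 2-fold, at a sum of 92.5 CPM in VhlhKO against 92.9 CPM in Ctrl. Most of this sum was *Flt1* (63.2 CPM in VhlhKO against 68.8 CPM in Ctrl). *Emcn* had 176 counts in VhlhKO against 88 in Ctrl, a ratio of 1.86 (1.43 to 2.43). The counting intervals of 2 of the 8 genes lay above 1 and that of 1 below 1. The part of these cell types in the ratios of *Igfbp3* and *Igf1* was not tested.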

How the data were processed

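RNA of EpCAM-CD45-Nephrin-Pdpn+ cells was measured as 1 pooled library per genotype (poly(A)-selected, strand-specific, read from both ends). According to the notes of the submitters, the processing used GRCm38 and tools that include cutadapt, STAR and featureCounts; versions, annotation release, strand setting and gene lengths are not given in the sources read. Values deposited by the authors are unnormalized counts for each gene, and TPM, which is per length and library. For 183 of 184 listed genes with at least 20 counts in VhlhKO the length behind the TPM was within 5% of the summed exon length in GENCODE M21, apart from a common factor. The table also holds the authors' fold changes and p-values, which were not used.

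Groups came from the genotype entries. TMM factors were 0.997 (VhlhKO) and 1.00 (Ctrl), from edgeR 4.0.16 in R 4.3.3. The 0.5 CPM added to each side equals 17.2 counts in VhlhKO and 16.0 in Ctrl. No p-value was computed. Ratio intervals are exact conditional binomial intervals. PCR copies are not independent molecules. The rule was also run on simulated counts with counting error only. It called 98 of 100 planted 3-fold changes and 0 of 14998 unchanged genes. The simulation held no spread of mice or pools, so it cannot show how often the rule errs between pools. Symbols on more than 1 gene ID were taken at the ID with the most counts.

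The 10 genes and the 17 other gene lists were chosen with earlier results of these data known. The genes named are the 10 IGF genes, *Igfbp1*, *Igfals* and *Insr*, every listed gene past 2-fold or else the gene of a list with the highest TPM in VhlhKO, and the 5 genes closest to *Igfbp3* in log2 ratio at 100 CPM or more, of which 4 are reported here. *Pappa*, *Stc2*, *Plau*, *Ccn1*, *Ccn2*, *Grb14*, *Pik3r1*, *Acta2*, *Tagln*, *Cspg4* and the overlapping genes were named beyond this rule, after their values were seen. *Car9*, *Flt1* and *Emcn* were named in the same way. So were markers at or near 0 and the genes of the sort check. Promoters are from RefSeq (GRCm38.p6) and gene positions from GENCODE M21 (GRCm38). Alternatives were scaling by total counts, by DESeq2 (1.42.0) size factors and by TMM without the marker genes, the TPM in place of counts, other added amounts (0.05 and 5 CPM), count minimums (none and 100) and fold sizes (1.5 and 3). Python 3.11.15, numpy 2.4.6, pandas 2.3.3, scipy 1.17.1 and matplotlib 3.10.9 were used for the rest.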

Additional observations from a re-analysis of the deposited data

How the results depend on the processing

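The log2 ratio of *Igfbp3* stayed between 2.42 and 2.59 under 8 alternatives of scaling, unit, added amount and count minimum, and the lowest value came with 5 CPM added. All 9 IGF genes with enough counts kept their direction under the same alternatives. Only the alternatives of scaling and unit could have turned a direction. An amount added to both sides keeps the sign, and the count minimum does not enter the ratio. With 0.05 CPM added 2 IGF genes were called higher, *Igfbp3* and *Igfbp6*, whose log2 ratio was then 1.01. At 1.5-fold 4 were higher and 1 was lower. Over all genes, 435 were higher and 151 lower with 0.05 CPM added, 66 and 18 with 5 CPM added, 725 and 278 at 1.5-fold, and 63 and 25 at 3-fold, in place of 261 and 80, and with a minimum of 100 counts, which leaves fewer genes, 46 were lower. As a share of CPM, which is not per length, *Igfbp3* was 13.4% of the binding proteins in VhlhKO and 2.91% in Ctrl. No paired analysis was possible because each genotype has 1 library, and for the same reason no library could be left out. Depth limits *Igf2* and *Igfbp1*, with 1 to 3 counts, for which no difference was detectable at this depth.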

Other observations

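Of the genes that bind *Igf2* mRNA or share imprinting with *Igf2* and *Igf2r*, none of 10 measured was past 2-fold, and their median log2 ratio was -0.35, beside -0.00065 for all genes. The mRNA-binding protein gene *Igf2bp2* had 1987 counts in VhlhKO against 1965 in Ctrl, while *Igf2bp1* (254 and 323 counts) and *Igf2bp3* (101 and 148 counts) had ratios of 0.731 (0.617 to 0.864) and 0.634 (0.487 to 0.822). *Mest*, an imprinted gene of mesoderm, had 270 counts in VhlhKO against 483 in Ctrl, and was 1.93-fold lower (1.66 to 2.24). *H19*, the noncoding neighbor of *Igf2*, had 52 counts in VhlhKO against 51 in Ctrl. The most abundant gene of this list was *Peg3*, an imprinted zinc finger gene, at 289 TPM in VhlhKO and 379 TPM in Ctrl. These genes were listed with earlier results known, and the examples other than *Peg3* were named after their values were seen.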
